A study of Mus musculus and Homo sapiens with 22 samples.

Results

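The genes of the mitochondrial respiratory chain that are encoded in the nucleus were examined for promoter peaks in 3 deposited CUT&RUN peak lists of the transcription factor PROX1. They were chosen by symbol: every protein-coding gene starting with Nduf (complex I), Uqcr (complex III), Cox4 to Cox8 (complex IV) or Atp5 (complex V, the ATP synthase), plus Sdha, Sdhb, Sdhc and Sdhd (complex II). This gave 93 of 21829 protein-coding genes in mouse and 98 of 19663 in human, of which 91 could be paired between the species by known orthology. A gene had a promoter peak where the summit of at least 1 peak lay within 1000 bp of a transcription start site (TSS) of 1 of its protein-coding transcripts.

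The series held 22 CUT&RUN samples. CUT&RUN cuts and sequences DNA next to an antibody-bound protein in permeabilised cells or nuclei, here with pAG-MNase. Nuclei from homogenised liver of wild-type C57BL/6J mice aged 2 to 3 months, labelled hepatocyte with no sorting step given, were profiled with an antibody to endogenous PROX1 (5 samples) or with IgG (5 samples). Mouse embryonic fibroblasts (MEFs) from C57BL/6N E13.5 embryos carried lentiviral rtTA and tetO-FLAG-mmProx1, received doxycycline for 2 days, and were profiled with anti-FLAG (3 samples) or IgG (3 samples). Hep3B, a human hepatocellular carcinoma line, carried lentiviral pLIX-Puro-hsPROX1, was selected with puromycin for a stable line, given doxycycline for 2 days and profiled with anti-FLAG (3 samples) or IgG (3 samples). The FLAG lists therefore describe overexpressed PROX1, and the liver list endogenous PROX1 in nuclei of a tissue with several cell types. Each list pooled the antibody samples of 1 group and held 50159 peaks in liver, 40531 in MEF and 14369 in Hep3B. No value below has a replicate error and no test between samples was possible, and the depth behind each list is unknown. Peak strength was therefore given as a percentile: the rank of the summit −log10 p among all peaks of the same list, from 0 (weakest) to 100 (strongest). Of marker promoters, a peak was present at 8 of 8 hepatocyte genes in liver, 7 of 8 fibroblast genes in MEF, and 1 of 10 hepatocyte genes (CPS1) in Hep3B. Over liver, MEF and Hep3B, cholangiocyte markers had one at 0, 2 and 3 of 4, endothelial markers at 0, 1 and 0 of 3, and Kupffer cell markers at 0 of 3 in each. A peak at a marker is a binding measurement and does not show the gene's expression.

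As background, complexes I and II pass electrons from NADH and succinate to ubiquinone, complex III passes them on to cytochrome c and complex IV to oxygen, and the proton gradient built by complexes I, III and IV drives the ATP synthase. Most subunits come from nuclear genes with CpG-rich promoters, which are known for sites of NRF1, of the ETS factor GABPA and of estrogen-related receptors (ERRs). PROX1 is a homeodomain protein of hepatocytes that is known to bind ERRα and its coactivator PGC-1α and to dampen their activity on metabolic genes. It is often described as a repressor, and none of the lists measures transcription.

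Promoter peaks were more frequent at respiratory chain genes than at all genes in each full list, with the highest share in MEF. In liver, 38 of 93 members had a promoter peak (40.9%, Wilson 95% interval 31.4 to 51.0%), beside 26.7% of all mouse protein-coding genes. In MEF, 84 of 93 members had one (90.3%, 82.6 to 94.8%), beside 55.4% of all genes. In Hep3B, 68 of 98 members had one (69.4%, 59.7 to 77.6%), beside 44.5% of all human genes. The intervals treat genes as the counted units and carry no replicate error. Next to the limit of 1000 bp, the farthest liver member counted was Ndufb3 at 846 bp and the closest one left out was Ndufaf4 at 1041 bp; in MEF these were Ndufa13 at 851 bp and Ndufa7 at 6876 bp, and in Hep3B UQCRC2 at 691 bp and NDUFA4L2 at 1464 bp. The liver count depended on weak peaks. With each list reduced to its 14369 strongest peaks, the length of the Hep3B list, 1 liver member (Cox7a2, 1.08% of 93) was left, below the 4.99% of all genes, so the direction against all genes turned in liver. In MEF 56 members (60.2%) were left, beside 34.0% of all genes, and at this length Hep3B (69.4%) and not MEF had the highest share.

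**Figure D1:**
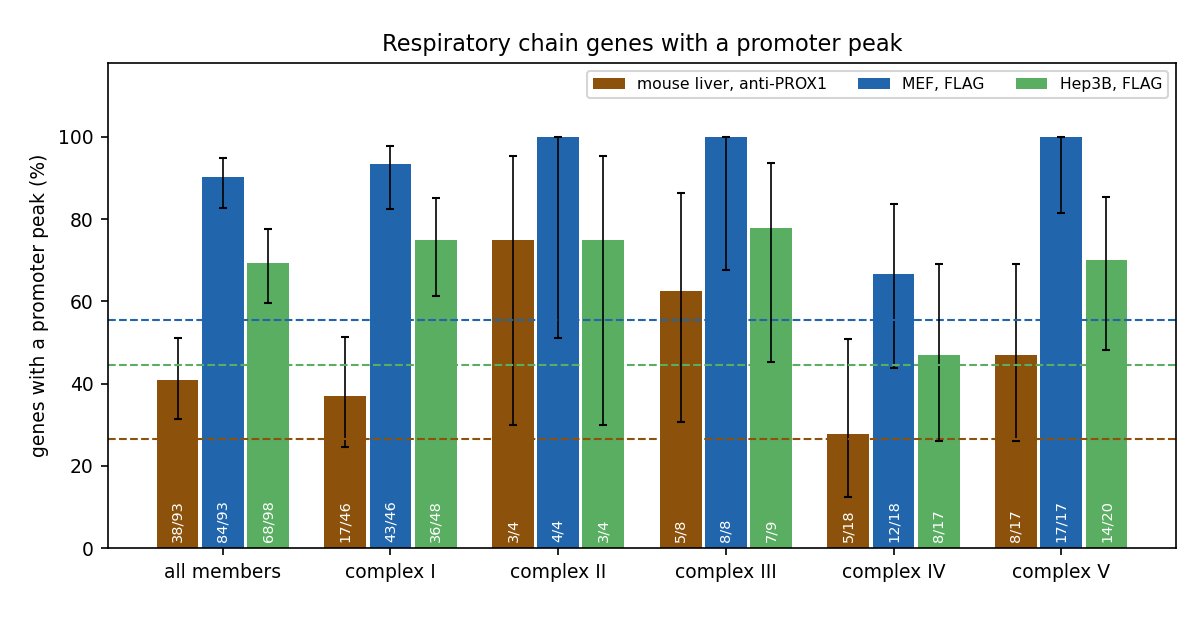
Share of respiratory chain genes with a promoter peak (%, y axis) for all members and for each complex (x axis) in liver, MEF and Hep3B; bars carry the number with a peak over the number of members, whiskers are Wilson 95% intervals over genes and dashed lines give the share among all protein-coding genes of each list. MEF bars reach 100% for complexes II, III and V, and complex IV has the lowest share in each list.

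The level was similar at other nuclear genes for mitochondrial and translational machinery. Mitochondrial ribosomal protein genes had promoter peaks at 32 of 78 in liver, 77 of 78 in MEF and 62 of 78 in Hep3B. Cytosolic ribosomal protein genes had them at 29 of 85, 79 of 85 and 64 of 88. Member promoters were richer in CpG than those of all genes. From 250 bp before to 50 bp after the start, the median CpG count was 17 over mouse members and 12 over all mouse genes, and 21 over human members and 19 over all human genes. Over all genes the median CpG count was 20 with and 3 without a promoter peak in MEF, and 18 and 8 in liver. Within the members the medians with and without a peak were 17.5 and 17 in liver, 18 and 10 in MEF, where 9 had none, and 21 and 22.5 in Hep3B. The part of promoter composition in the counts was not tested.

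Complex I, the NADH dehydrogenase and the largest complex, had promoter peaks at 17 of 46 members in liver (37.0%), 43 of 46 in MEF (93.5%) and 36 of 48 in Hep3B (75%). Over all genes the shares were 26.7%, 55.4% and 44.5%. The Wilson 95% interval of complex I held that share in liver (24.5 to 51.4%) and lay above it in MEF and Hep3B. Among its 7 nuclear core subunits, which hold the flavin and the iron-sulfur clusters, 4 had a peak in liver, 7 in MEF and 6 in Hep3B. Ndufv1, the NADH-binding flavoprotein, was at percentile 49.6 in liver, 97.98 in MEF and 99.2 in Hep3B. Ndufs8, an iron-sulfur subunit, followed the same order with percentiles of 48.6, 95.5 and 96.2. Both were among the strongest member promoters of the FLAG lists and near the middle of the liver list. Ndufs1, which carries iron-sulfur clusters, was at 44.3, 39.3 and 69.4. The other 3 core genes had no promoter peak in liver: Ndufv2 (89.7 in MEF, 47.3 in Hep3B), Ndufs7 (19.8 and 2.15) and Ndufs3 (50.0 in MEF, none in Hep3B). Their nearest liver summits lay 140928, 10905 and 13825 bp from a start site.

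Accessory subunits of complex I had promoter peaks at 11 of 29 in liver, 26 of 29 in MEF and 23 of 30 in Hep3B. Ndufb3 gave the second strongest member peak in liver (−log10 p 13.7, 64.9th percentile). That peak, at chr1:58585215-58586727 (mm10), had its summit 846 bp upstream of Ndufb3 in an intron of Fam126b, whose start was the nearest. Ndufb3 was at 69.6 in MEF and 88.9 in Hep3B. Ndufa12, another accessory subunit, was at 58.7 in liver, 33.3 in MEF and 60.1 in Hep3B, 1 of 3 members, with Cox7a2 and Ndufs1, that ranked lower in MEF than in liver. Ndufa11 and Ndufb5 had no liver peak but were at 96.99 and 97.93 in MEF and at 98.7 and 87.7 in Hep3B. Ndufa1, Ndufa7 and Ndufc2 had no promoter peak in any list. The nearest MEF summits were 106038 bp from Ndufa1, 6876 bp from Ndufa7 and 13768 bp from Ndufc2. Of the 8 assembly factors of the Ndufaf series, which build complex I and are not part of it, Ndufaf6 alone had a peak in liver, all 8 had one in MEF, and 6 had one in Hep3B. Ndufaf6 was at 39.0 in liver, 42.6 in MEF and 81.96 in Hep3B. Ndufa4, named for complex I but now known as a subunit of cytochrome c oxidase, was at 26.2 in liver, 83.8 in MEF and 98.1 in Hep3B.

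Complex II, the succinate dehydrogenase, has 4 subunits, and each was measured. Sdha, the flavoprotein, gave the third strongest member peak in liver (−log10 p 13.1, 59.0th percentile) at chr13:74349933-74350556, with the summit 22 bp into its transcript and the start of Ccdc127 also within 1000 bp. It was at 94.5 in MEF, where its summit lay 28 bp from the start, and had no promoter peak in Hep3B, where the nearest summit was 20028 bp away. Sdhb, the iron-sulfur subunit, showed the opposite: no promoter peak in liver (nearest summit 1843 bp away), the strongest member peak of MEF (−log10 p 11.1, 99.9th percentile) at chr4:140960721-140961590, and 95.4 in Hep3B. The membrane anchors Sdhc and Sdhd had peaks in all lists, at 2.84 and 6.04 in liver, 92.7 and 21.0 in MEF, and 70.6 and 48.9 in Hep3B. The order of the 4 subunits thus differed between the lists.

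Complex III, the cytochrome bc1 complex, had promoter peaks at 5 of 8 members in liver, 8 of 8 in MEF and 7 of 9 in Hep3B, beside 26.7%, 55.4% and 44.5% of all genes. Among its core genes, Uqcrc1 had peaks in liver (35.9) and MEF (92.7) and none in Hep3B. Uqcrc2 (51.3 in MEF, 51.2 in Hep3B) and Uqcrfs1, the Rieske iron-sulfur protein (63.2 and 81.7), had none in liver. The small subunits Uqcrb, Uqcrh, Uqcrq and Uqcr10 had peaks in all lists, between 2.60 and 39.9 in liver, 12.9 and 96.5 in MEF, and 30.5 and 74.9 in Hep3B. Uqcr11 had none in liver and was at 47.0 in MEF and 28.7 in Hep3B. UQCRHL, a human relative of UQCRH without introns, had none, as did the other symbols found in human alone that name a copy or a readthrough transcript (ATP5MGL, ATP5MF-PTCD1 and NDUFC2-KCTD14). Outside the symbol rule, the electron carrier cytochrome c (Cycs) had a promoter peak in all lists, at 75.2, 88.1 and 77.6. Cytochrome c1 (Cyc1) is a core subunit of complex III itself, but its symbol also falls outside the rule. The complex III counts above therefore leave it out. Cyc1 had no promoter peak in liver and was at 70.4 in MEF and 68.8 in Hep3B.

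**Figure D2:**
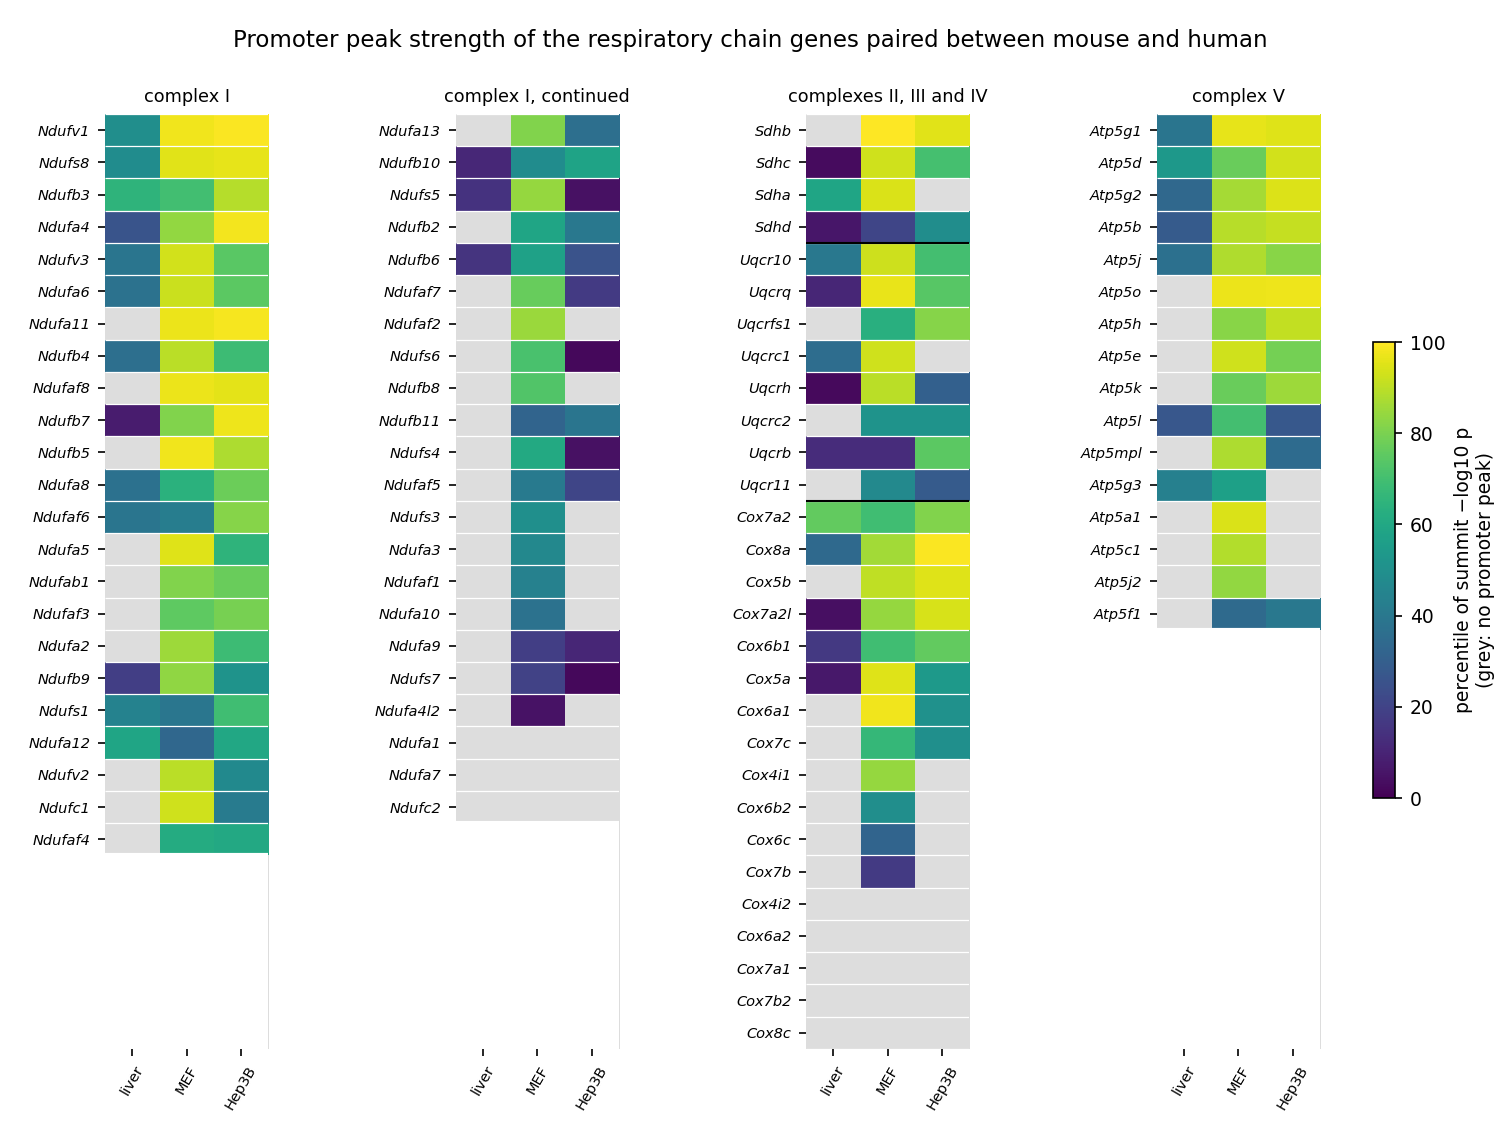
Percentile of the summit −log10 p of the strongest promoter peak (colour, 0 to 100 within each list) for 90 paired members (rows, mouse symbols, ordered within each complex by the sum over lists) in liver, MEF and Hep3B (columns); grey means no promoter peak. Members with a liver peak are filled in the MEF column throughout, and 8 rows are grey in all columns.

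Complex IV, cytochrome c oxidase, had the lowest shares. They were 5 of 18 members in liver (27.8%), 12 of 18 in MEF (66.7%) and 8 of 17 in Hep3B (47.1%). Over all genes the shares were 26.7%, 55.4% and 44.5%, and the Wilson 95% interval of complex IV held them in each list. In liver the intervals of complexes I and V also held the share of all genes, and in MEF and Hep3B that of complex II did. Its nuclear subunits include isoforms that are used in heart and muscle, lung or testis. The isoform genes Cox4i2, Cox6a2, Cox6b2, Cox7a1, Cox7b2, Cox8b and Cox8c were counted with Ndufa4l2, a relative of Ndufa4 that falls under complex I by its symbol. Of these 8, 0 had a peak in liver, 2 in MEF (Cox6b2 at 49.2 and Ndufa4l2 at 5.04) and 0 of 7 in Hep3B. Without Ndufa4l2 the counts were 0 of 7, 1 of 7 and 0 of 6. With Ndufa4l2 included, the Wilson 95% interval over these genes held the share of all genes in liver (0 to 32.4%) and in MEF (7.15 to 59.1%). In Hep3B the interval (0 to 35.4%) lay below that share. The counterparts of these isoforms used in most tissues had more. Cox7a2 was at 75.9 in liver, 69.5 in MEF and 81.1 in Hep3B. Cox8a was at 34.0, 86.1 and 99.5, the last being the strongest member peak of Hep3B at chr11:63974148-63975034 (hg38). Cox6b1 was at 16.4, 69.2 and 75.9, and Cox6a1 had none in liver and was at 97.8 and 50.6. Cox4i1 and Cox7b had a peak in MEF (84.3 and 16.8) and in no other list. Without the isoform genes, complex IV had 5 of 11 in liver, 11 of 11 in MEF and 8 of 11 in Hep3B, near the shares over all members.

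Complex V, the ATP synthase, had promoter peaks at 8 of 17 members in liver, 17 of 17 in MEF and 14 of 20 in Hep3B. Its Wilson 95% interval held the share of all genes (26.7%) in liver (26.2 to 69.0%) and lay above that share in MEF and Hep3B. The 3 genes of the membrane-embedded c ring, Atp5g1, Atp5g2 and Atp5g3, encode the same mature protein, and all had peaks in liver (39.1, 33.7 and 43.4) and in MEF (96.2, 86.3 and 56.9). In Hep3B, ATP5MC1 and ATP5MC2 were at 95.1 and 94.9 and ATP5MC3 had none. Of the 5 genes of the catalytic F1 head, Atp5b (beta) and Atp5d (delta) had a liver peak, at 28.6 and 53.5. They were at 89.1 and 77.1 in MEF and at 91.1 and 93.0 in Hep3B. Atp5a1 (alpha) was at 94.3 in MEF and had no promoter peak in liver or Hep3B. The peripheral stalk genes had peaks at 1 of 4 in liver (Atp5j, 36.8), 4 of 4 in MEF and 4 of 4 in Hep3B. ATP5IF1, the inhibitor of ATP hydrolysis, was a member in human alone and was at 97.3 in Hep3B.

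The lists could be ordered by how they nested. Each of the 38 members with a promoter peak in liver also had one in MEF (100%), beside 83.7% of the 5818 genes with a liver promoter peak. Whatever their state in liver, 90.3% of members and 55.4% of all genes had a MEF peak, so a high overlap at members was already set by the MEF share. Read the other way, 45.2% of the MEF members also had a liver peak, beside 40.3% of all genes. A peak in MEF alone of the mouse lists was seen at 46 members and none in either list at 9. Over the 91 pairs, 34 (37.4%) had a promoter peak in all 3 lists, beside 21.9% of the 15736 genes with the same symbol in both annotations. Another 32 had one in MEF and Hep3B, 14 in MEF alone, 3 in liver and MEF (Sdha, Uqcrc1 and Atp5g3) and 8 in none. No pair had a peak in liver or Hep3B without one in MEF. The liver and FLAG lists differ in antibody, PROX1 level and cell type at once, and these cannot be told apart.

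Peaks at members in liver and MEF also lay close together. Of 43 liver promoter peaks at members, 38 overlapped a MEF peak by at least 1 bp (88.4%), beside 67.6% of all 7253 liver promoter peaks. With summits within 100 bp required, 23 of 43 remained (53.5%), beside 21.8% of all. Over the 38 members with a peak in both lists, the strongest summits were a median of 108.5 bp apart, beside 268.0 bp over the 4867 genes with a peak in both. Members had a MEF promoter peak more often (90.3%, beside 55.4% of all genes), and their summits lay nearer to start sites in both lists. The part of either in these values was not tested. Cox7a2, the highest member when they were ordered by their lowest percentile over the 3 lists, had liver and MEF summits 87 bp apart. The sequences at its summits are shown so that the positions can be read, each centred on a summit, 5′ to 3′ along the gene, and shortened where more than 30 bases fell in an annotated UTR. Capitals mark the strings described further on.
Cox7a2, liver, mm10 chr9:79759869-79759969, minus strand: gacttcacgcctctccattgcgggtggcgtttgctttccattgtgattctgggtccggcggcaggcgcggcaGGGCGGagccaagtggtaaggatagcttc
Cox7a2, MEF, mm10 chr9:79759818-79759846, minus strand: ccgctgcgagaagtcgctctggctcgcct
COX7A2, Hep3B, hg38 chr6:75243932-75243960, minus strand: cgagatcacgggactgagacggcgagccg

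Members ranked lower within the liver list than within the FLAG lists. In liver, the member promoter peaks had a median percentile of 35.0 (order-statistic 95% interval 18.5 to 39.0, over genes), beside 37.0 over all genes with a promoter peak, and 1 of 38 (2.63%) stood in the top quartile, beside 16.3% of all genes. In MEF the median was 81.2 (70.3 to 85.4), beside 74.7, with 58.3% in the top quartile, beside 49.7%. In Hep3B it was 70.4 (58.2 to 79.1), beside 63.8, with 42.7% in the top quartile, beside 36.8%. Member promoters were thus mostly low-ranked sites of the liver list, as were promoters of all genes, and high-ranked sites of the FLAG lists. Complex V had the highest median of the larger complexes in the FLAG lists, 86.3 in MEF (77.1 to 89.1) and 88.04 in Hep3B (40.0 to 95.1). Ranked by area, complex V stayed highest of these in MEF (86.5), but in Hep3B complex IV (79.0) was above complex V (70.3). Complex I was at 75.1 (58.7 to 84.1) and 62.7 (41.8 to 77.1), and the intervals of the complexes overlapped in each list. Ranked among promoter peaks alone, the member medians were 47.9 in liver, 58.7 in MEF and 57.5 in Hep3B.

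**Figure D3:**
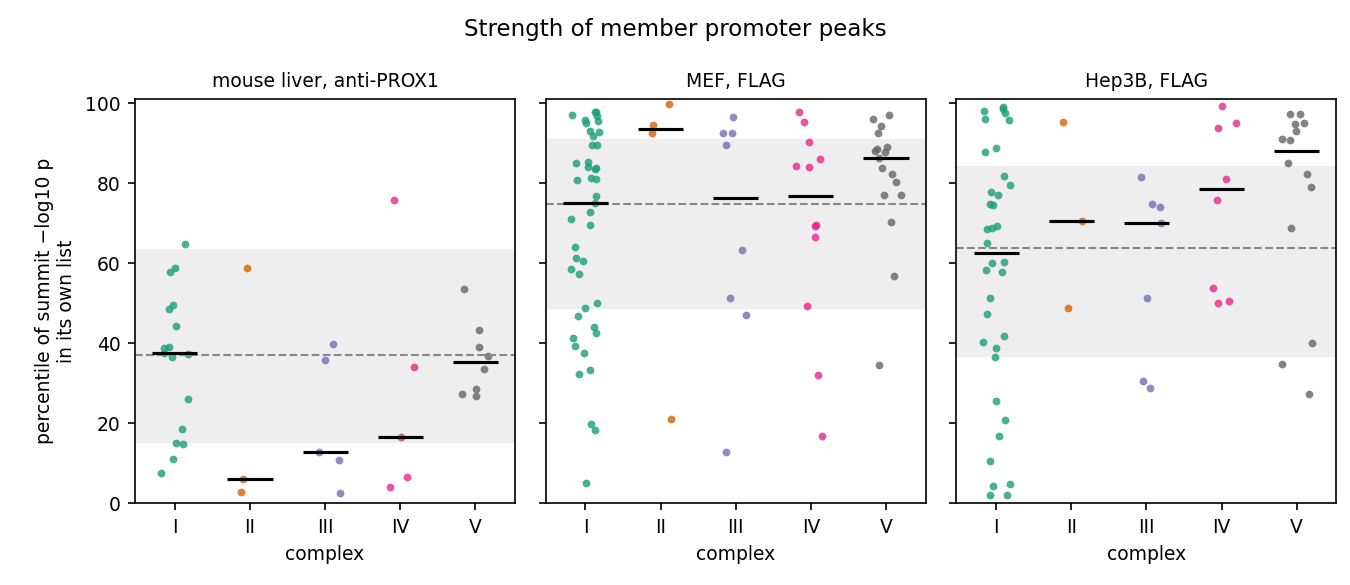
Percentile of the summit −log10 p in its own list (y axis) for the strongest promoter peak of each member, by complex (x axis), in liver, MEF and Hep3B; points are genes with random sideways offset, black bars their medians, and the dashed line and grey band the median and quartiles of all protein-coding genes with a promoter peak. Liver points lie below 76 and mostly below 50, and complex V points of MEF and Hep3B gather above 75.

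Summits sat close to start sites. The median distance from summit to start was 119 bp in liver, 61 bp in MEF and 95 bp in Hep3B, beside 193, 97 and 96 bp over all genes with a promoter peak. In Hep3B, 9 of 68 member summits lay downstream of the start (13.2%), in MEF 21 of 84 (25%) and in liver 16 of 38 (42.1%). Over all genes with a promoter peak the shares were 21.7%, 31.1% and 34.8%, in the same order of lists. Many members share their promoter region with a neighbour. The start of another protein-coding gene was within 1000 bp of the summit at 13 of 38 members in liver (34.2%, beside 16.1% of all genes), 31 of 84 in MEF (36.9%, beside 19.1%) and 27 of 68 in Hep3B (39.7%, beside 27.6%). Examples are Sdhd with Timm8b, Ndufb5 with the mitochondrial ribosomal gene Mrpl47, and Atp5j with Gabpa, which encodes the DNA-binding subunit of GABP. At these sites a peak cannot be assigned to 1 gene. The member was the nearest gene for 34 of 38 peaks in liver, 68 of 84 in MEF and 54 of 68 in Hep3B.

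The summit windows were searched for 8 short strings on both strands, each window taking 100 bp on either side of the strongest promoter summit: GCGCANGCG (NRF1), CCGGAAG (ETS), AAGATGGCG (YY1), GGGCGG (SP1), CCAAT (NF-Y), AAGGTCA (ERR), TGACGTCA (CREB) and AGNCGNCT (PROX1 core). None of these strings contains another. They were written from general knowledge and are not the matrices of the study. In the FLAG lists the ERR string had the highest ratio of its share at members to that at all promoter peaks, while the SP1 string differed by more percentage points. The ERR string occurred at 10 of 84 members in MEF (11.9%, Wilson 95% interval 6.60 to 20.5%), beside 1.63% of 12086 genes, and at 8 of 68 in Hep3B (11.8%, 6.08 to 21.5%), beside 1.36% of 8741 genes. In liver it occurred at 3 of 38 (7.89%, 2.72 to 20.8%), beside 5.67% of 5818 genes, a difference within the interval. With 50 bp on either side the shares fell to 7.14% in MEF, 5.88% in Hep3B and 2.63% in liver, beside 0.827%, 0.675% and 3.35% of all genes, so that the liver share was then below that of all genes. The string was also more frequent at member starts in general, whether or not they had a peak: from 250 bp before to 50 bp after the start it stood at 10.8% of mouse members, beside 4.11% of all mouse genes, and at 8.16% of human members, beside 3.46%.

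**Figure D4:**
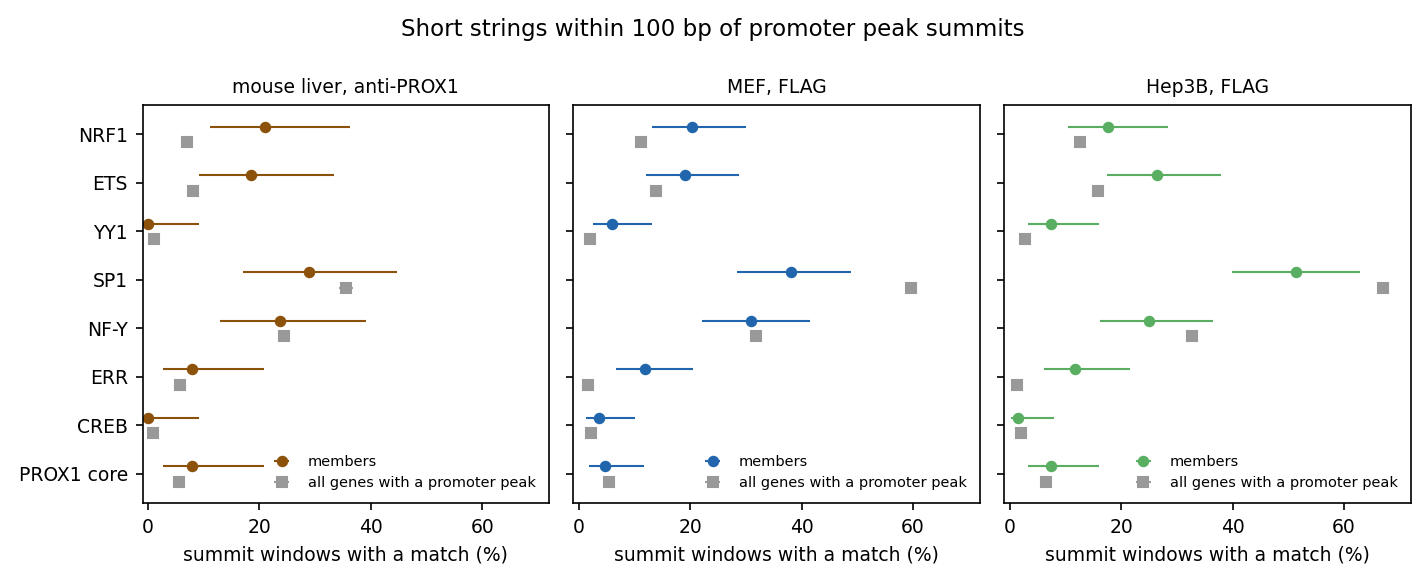
Share of promoter summit windows (100 bp on either side, %, x axis) that hold each of 8 short strings (y axis) at respiratory chain members (coloured circles) and at all protein-coding genes with a promoter peak, members included (grey squares), in liver, MEF and Hep3B; whiskers are Wilson 95% intervals over genes. The ERR string is above the grey square in MEF and Hep3B and the SP1 string below it, while the PROX1 core string overlaps it in each list.

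The members with the ERR string in MEF were Atp5a1, Atp5e, Atp5g3, Atp5k and Atp5mpl of complex V, Ndufb2 and Ndufb4 of complex I, Sdhd, Uqcrq and Cox8a. In Hep3B they were NDUFB4, NDUFB9, NDUFS7, SDHB, SDHD, UQCRH, COX7A2 and ATP5MG. In liver they were Ndufb4, Ndufs5 and Atp5g3. 2 genes held it at the summit in both species, Ndufb4 and Sdhd, and 2 held it in both mouse lists, Ndufb4 and Atp5g3, where the summits of the lists lay 79 and 15 bp apart. These 3 were chosen after the values were seen. Their sequences are given 5′ to 3′ along the gene with the ERR string, or its complement TGACCTT, in capitals.
Ndufb4, liver and MEF, mm10 chr16:37654406-37654434, minus strand: tcctgagcctgAAGGTCAgactcgagagg
NDUFB4, Hep3B, hg38 chr3:120596267-120596333, plus strand: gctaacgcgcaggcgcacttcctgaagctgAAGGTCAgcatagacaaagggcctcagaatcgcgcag
Sdhd, MEF, mm10 chr9:50603777-50603843, minus strand: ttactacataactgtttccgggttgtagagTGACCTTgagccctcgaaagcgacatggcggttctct
SDHD, Hep3B, hg38 chr11:112086873-112086901, plus strand: gggttggtggaTGACCTTgagccctcagg
Atp5g3, liver and MEF, mm10 chr2:73911342-73911408, minus strand: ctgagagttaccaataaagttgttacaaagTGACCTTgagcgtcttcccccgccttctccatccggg

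Around the string, the printed mouse and human windows shared 11 bases at Ndufb4 (ctgAAGGTCAg) and 15 at Sdhd (TGACCTTgagccctc). The centre of the string was 33 bp into the mouse and 28 bp before the human transcript at Ndufb4, and 12 and 67 bp from the liver and MEF summits and 11 bp from the Hep3B summit. At Sdhd it was 7 bp from the MEF summit and 77 bp from the Hep3B summit. The match is a description of the DNA, and the lists do not show whether an ERR was bound there.

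Of the other strings, the NRF1 string stood at 8 of 38 member summits in liver (21.1%, beside 6.93%), 17 of 84 in MEF (20.2%, beside 11.2%) and 12 of 68 in Hep3B (17.6%, beside 12.6%). The members' Wilson 95% interval held the share of all genes in Hep3B (10.4 to 28.4%) and lay above it in liver and MEF. The ETS string stood at 18.4%, 19.0% and 26.5%, beside 8.13%, 13.8% and 15.9%. Here the members' interval held the share of all genes in MEF (12.1 to 28.7%) and lay above it in liver and Hep3B. The SP1 string was less frequent at member summits, at 28.9%, 38.1% and 51.5%, beside 35.6%, 59.7% and 67.0%. Its interval at members held the share of all genes in liver (17.0 to 44.8%) and lay below it in MEF and Hep3B. From 250 bp before to 50 bp after the start it stood at 46.2% of mouse members, beside 43.8% of all mouse genes. For human members it was 54.1%, beside 54.4%. The NRF1 and ETS strings were more frequent at member starts than at those of all genes in both species. The PROX1 core string stood at 7.89%, 4.76% and 7.35%, beside 5.52%, 5.38% and 6.45%, and the members' interval held the share of all genes in each list. At starts, with or without a peak, the species differed in direction for this string. It stood at 11.8% of mouse members, beside 5.58% of all mouse genes, and at 4.08% of human members, beside 7.415%.

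Genes that assemble the chain or regulate its transcription also had promoter peaks, most often in MEF. Over 37 assembly factors with other symbols, they were found at 13 in liver (35.1%), 37 in MEF (100%) and 31 in Hep3B (83.8%). Over all genes the shares were 26.7%, 55.4% and 44.5%, and the liver interval of the assembly factors (21.8 to 51.2%) held the first. For complex IV factors the counts were 9, 18 and 16 of 18, and Cox19, a copper-handling protein of the intermembrane space, was at 49.2, 99.1 and 86.1. Over 14 regulators of mitochondrial gene expression the counts were 9 (64.3%), 14 (100%) and 12 (85.7%). In liver and Hep3B these shares were above those of the members (40.9% and 69.4%). The Wilson 95% intervals of the regulators (38.8 to 83.7% and 60.1 to 96.0%) held the members' shares. Esrra, which encodes ERRα, had promoter peaks in all lists, at 76.3 in liver, 95.5 in MEF and 99.97 in Hep3B and its liver and Hep3B percentiles were above those of every respiratory chain member (highest 75.9 and 99.5). Ppargc1a, which encodes PGC-1α, was at 11.8, 88.1 and 49.6. Gabpa was at 22.8, 87.98 and 82.4, and in MEF and Hep3B its peak was the same as that counted for its neighbour Atp5j. Tfam, which packages mitochondrial DNA, had no promoter peak in liver and was at 99.1 in MEF and 40.4 in Hep3B. Nrf1 had none in liver and was at 51.1 and 30.8.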

How the data were processed

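CUT&RUN peak lists of 22 samples in 6 groups were used as the authors deposited them. Reads were trimmed by the authors with Trim Galore (0.6.6) and aligned with Bowtie 2 (2.4.2) to mm10 or hg38 within nf-core/cutandrun, and peaks were called with Genrich (0.6.1) over the antibody samples of a group, without reads of low mapping quality, duplicates or mitochondrial reads. Near-identical gene copies are therefore measured with less certainty. The sites are described as identified relative to IgG, while the stated command names no control, so how IgG entered is not known here. Each deposited list gives a score capped at 1000, which was not used, the signal (area under the authors' significance curve), −log10 p and −log10 q of the summit, and the summit offset. The deposited values were not normalized between lists, and the signal started at 500 in liver and 200 in the other lists, so ranks within a list were used.

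Summits were assigned to TSSs of protein-coding transcripts in GENCODE releases for GRCm38 (M21) and hg38 with Python (3.11.15), pandas (2.3.3) and SciPy (1.17.1). Sequences came from the same builds. Assignment and string searches were tested on simulated data. The members, gene lists and strings were chosen with earlier results of these data known. Named genes were all Sdh genes, the 3 strongest members of each list, the 10 members with peaks in all lists and the highest lowest percentile, members in no list, tissue isoforms with their partners, catalytic core genes, and further genes named after their values were seen. Alternatives were a window of 500 or 2000 bp, q below 0.05, area of at least 500, equal list length, other TSS sets, nearest gene, other ranks and other overlaps. 1 member counted in the totals is not reported here by name. Columns of per-sample values left unused numbered 0.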

Additional observations from a re-analysis of the deposited data

How the results depend on the processing

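Of 170 alternative values of the main results, 23 could not move because the setting left the peaks and members as they were. Of the other 147, 130 stayed close to the reported value, which for a count means within 1.5 times, and 17 moved. With each list reduced to its 14369 strongest peaks, promoter peaks in liver were left at 1 member: 0 in complex I, 0 in complex II, 0 in complex III, 1 in complex IV and 0 in complex V. In MEF the same setting left 25 in complex I and 4 in complex III. A peak area of at least 500 in Hep3B left 43 members, with 19 in complex I and 4 in complex III, and taking only peaks whose nearest gene is a member left 4 in complex III of Hep3B. The median percentile in liver was 44.86 when ranked by area and 47.94 among promoter peaks, and among promoter peaks it was 58.72 in MEF and 57.54 in Hep3B. Liver peaks shared with MEF came to 53.49% with summits within 100 bp. Of 48 alternative values for the short strings, 35 stayed close and 13 moved, all 13 with 50 bp on either side. The cause of these shifts was not tested beyond the construction of each setting, which keeps fewer peaks or shorter windows. The direction against all genes turned in liver at equal list length (1.075% of members, 4.993% of all genes). At that length the share in MEF (60.22%) fell below that in Hep3B (69.39%). With 50 bp on either side it turned for the ERR string in liver (2.632% and 3.352%). There it also turned for the PROX1 core string in MEF (4.762% and 2.408%) and in Hep3B (2.941% and 3.032%). For this string it turned with 150 bp on either side as well, in MEF (8.333% and 8.142%) and in Hep3B (7.353% and 9.656%). In an alternative window the direction turned as well for NF-Y and YY1 in liver and for CREB in MEF and Hep3B.

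No paired analysis was possible because each deposited list pools the replicates of 1 group, and leaving out single replicates could not be run for the same reason. Sequencing depth per sample is unknown, so a missing peak does not show that a site is unbound.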
